A study of Mus musculus with 4 samples.

Results

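Genes of DNA replication and S phase were compared between monocytes of aged and young mice. The set held 48 genes, listed by name for their roles in loading and firing replication origins, copying DNA, supplying nucleotides, assembling new chromatin and entering S phase, out of 31017 gene symbols in each count table. All 48 symbols were found, and all 48 passed the filter on low counts. Wild-type C57BL/6 mice gave the bone marrow, from which monocytes were isolated by cell sorting, and their messenger RNA was sequenced. Of the 4 libraries, 2 came from mice aged 18 months (aged) and 2 from mice aged 3 months (young). Both ages carry atherosclerosis as the disease label, and the labels do not give the sort markers or say whether a library pools several animals or whether the libraries of an age came from separate animals. The p-values therefore reflect only how much the libraries of an age differed, and that spread may be technical.

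A cell copies its genome once per division. The origin recognition complex, Cdc6 and Cdt1 load the ring-shaped Mcm2 to Mcm7 helicase on DNA in G1, and Cdc45 with the GINS proteins turns it on in S phase. DNA polymerase alpha with primase starts each strand, DNA polymerases epsilon and delta extend the strands on the sliding clamp PCNA, and E2F transcription factors, released from RB proteins by cyclin-dependent kinases, switch on most of these genes together. Mature monocytes divide little, whereas their marrow progenitors cycle, so in the marrow these transcripts are typical of dividing precursors.

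The promoters of these genes were searched for the letters of an E2F site. An E2F-type word of 8 bases, TTTCCCGC, TTTCGCGC, TTTGCCGC or TTTGGCGC on either strand, was searched in RefSeq windows (build GRCm38.p6) from 250 bases before to 50 bases after a gene's start. Of the 48 genes, 40 had a window in the table, and 16 of these 40 (40.0%) held the word, against 434 of 9291 tested genes with a window (4.67%) and 744 of all 32851 windows (2.26%). On the list of 75 further genes of replication and its control described below, 15 of 59 genes with a window (25.4%) held the word. Of the G2 and mitosis genes below, 1 of 17 with a window (5.88%) held it. The word TTTGCCGC was found in 0 of the members' windows. Mcm4, Gins1, Gins2, Gins4, Prim2, Pole, Rfc2 and Ccne2 had no window in the table used. Of the helicase genes, Mcm3, Mcm5, Mcm6 and Mcm7 held the word, and the window of Mcm2 did not. The 250 bases before the start of Mcm5, Mcm6 and Mcm7 are shown because these helicase genes carried the word before their start and Mcm7 was one of the genes that passed the test below. Capitals mark the words; in Mcm5 and Mcm6 words on both strands overlap, and in Mcm7 the word lies on the opposite strand and reads GCGGGAAA.
Mcm5, chr8:75109259-75109508, plus strand: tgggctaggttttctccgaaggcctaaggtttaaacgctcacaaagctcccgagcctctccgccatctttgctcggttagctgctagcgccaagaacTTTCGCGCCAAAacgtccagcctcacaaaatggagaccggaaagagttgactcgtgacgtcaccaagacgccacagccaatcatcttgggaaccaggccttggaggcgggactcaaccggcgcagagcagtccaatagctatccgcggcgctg
Mcm6, chr1:128359706-128359955, minus strand: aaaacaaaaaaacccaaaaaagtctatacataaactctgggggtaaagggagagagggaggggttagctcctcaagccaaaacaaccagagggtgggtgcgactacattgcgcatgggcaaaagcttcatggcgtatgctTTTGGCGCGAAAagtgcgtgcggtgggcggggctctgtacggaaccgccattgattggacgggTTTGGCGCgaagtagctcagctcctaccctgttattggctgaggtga
Mcm7, chr5:138171884-138172133, minus strand: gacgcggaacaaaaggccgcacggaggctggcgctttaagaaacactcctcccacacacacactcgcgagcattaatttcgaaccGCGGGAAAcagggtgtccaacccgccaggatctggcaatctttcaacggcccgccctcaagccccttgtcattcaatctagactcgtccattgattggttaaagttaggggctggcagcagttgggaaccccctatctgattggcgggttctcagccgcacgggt
The words began at -153 and -149 in Mcm5, at -110, -106 and -47 in Mcm6 and at -165 in Mcm7, counted from the RefSeq start of each window. For Mcm7 that start lies inside the GENCODE gene model whose bounds are given with its values, so the stretch shown for it lies within that gene model. A second word of Mcm7, and both words of Mcm3, lay after the start. Orc1, Cdc6, Cdt1, Gins3, Pola1, Pold1, Pold3, Pole2, Rfc3, Lig1, Cdk2 and E2f2 made up the other genes with the word. The match is a description of letters and was not tied to binding in these cells. The median log2 change with age was -0.17 over the 16 genes with the word and -0.11 over the 24 genes whose window lacked it, a difference that was not tested. It was 0.056 over the 8 genes with no window, which ranged from -0.74 (Pole) to 0.14 (Rfc2).

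As a group the replication genes stood slightly lower in aged monocytes, and the differences of single genes were mostly small. Counts of the 48 genes made up 0.346% and 0.346% of all counts in aged libraries 1 and 2 (95% Wilson intervals 0.344% to 0.348% and 0.344% to 0.349%), against 0.377% and 0.375% in young libraries 1 and 2 (0.375% to 0.380% and 0.372% to 0.377%). The intervals cover counting error only. In CPM, counts scaled to the TMM-adjusted library size, the summed level of the 48 genes was 3439 and 3479 in the aged libraries, against 3745 and 3789 in the young ones, a ratio of 0.918 of the means. Both aged libraries lay below both young libraries. In bulk RNA, fewer cycling cells and less of these transcripts per cell cannot be told apart.

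Over the set, 34 genes had a negative and 14 a positive log2 change, aged minus young, with a median of -0.13 and a range from -0.74 to 0.16. Over all 12035 tested genes, 50.7% were negative and the median was -0.0044. In 30 of the 48 genes both aged libraries lay below both young ones, and in 3 genes (Rfc1, Rfc2 and Rfc5) above them. Over all tested genes these shares were 25.7% and 25.9%. The quasi-likelihood test of edgeR, adjusted by Benjamini-Hochberg over all tested genes at 0.05, called 2 of the 48 genes lower in aged monocytes, Pole and Mcm7. Of all tested genes, 5.77% were called in either direction and 2.89% lower. It called 0 of the 48 higher, where 2.87% of all tested genes were, and 0 higher also at an unadjusted p under 0.05 (10.1% of all tested genes). DESeq2 and limma-voom called 0 higher at an adjusted p under 0.05. At an unadjusted p under 0.05, 18 of the 48 genes were lower, beside 11.0% of all tested genes. DESeq2 gave 10 lower at that threshold, and limma-voom 17 lower and 1 higher. At an adjusted p under 0.05, DESeq2 called 2 of the 48 lower and limma-voom 3. The count depended on single libraries, being 0 without young replicate 1, 1 (Pole) without young replicate 2, and 4 (Pole, Mcm7, Mcm6 and Chaf1a) without aged replicate 1; a lone library was assumed to vary like the other age.

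**Figure D1:**
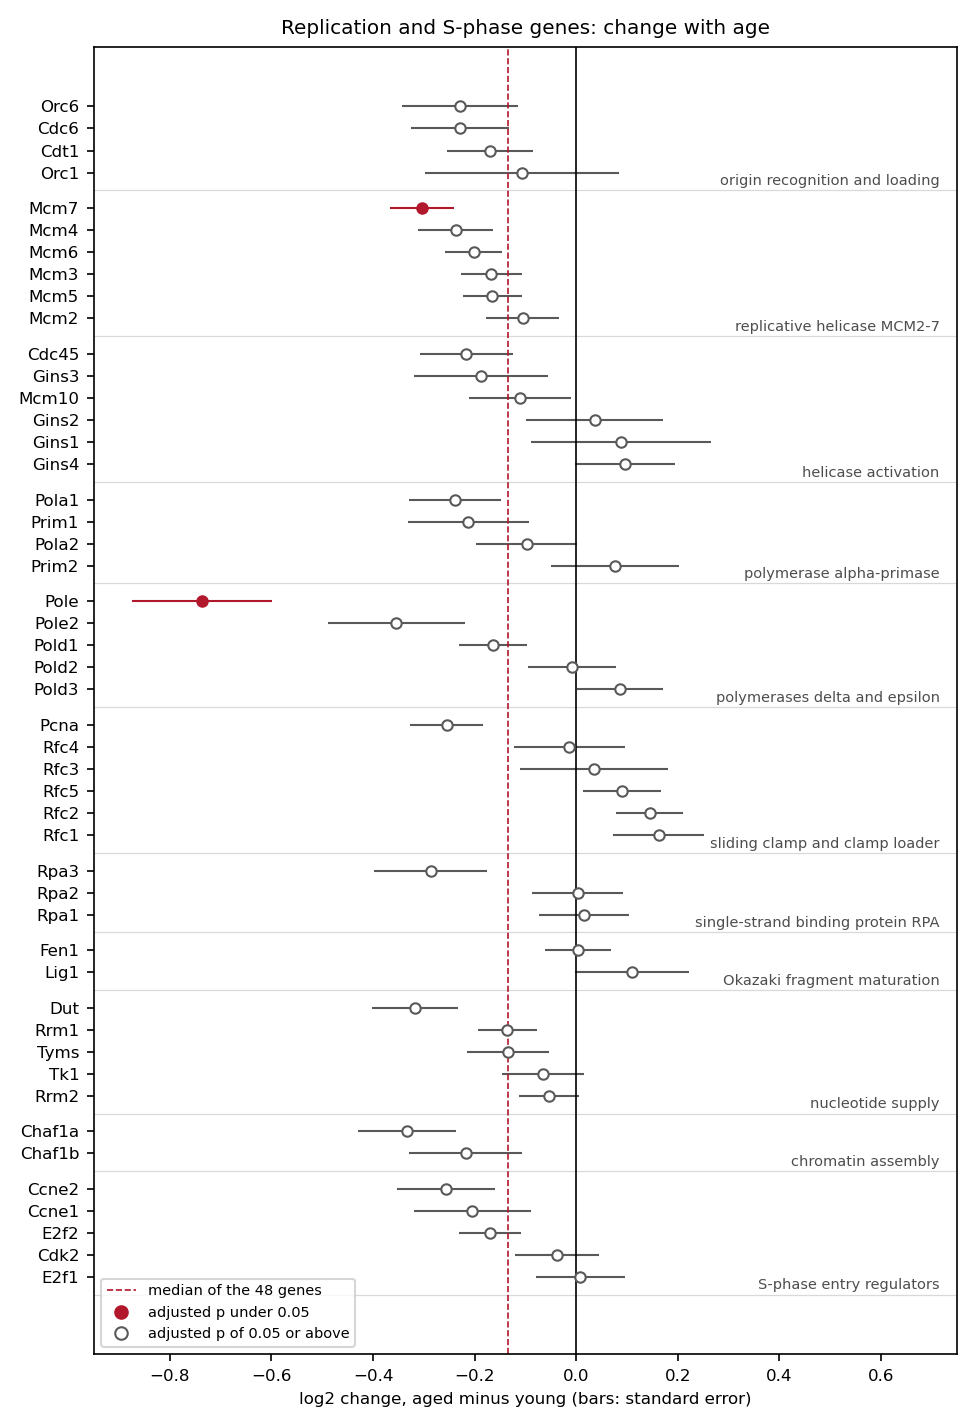
Log2 change, aged minus young, of the 48 replication and S-phase genes by role, with bars for the standard error and filled red points for an adjusted p under 0.05. Pole (-0.74) and Mcm7 (-0.30) are filled, and the dashed line marks the median of -0.13.

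**Figure D2:**
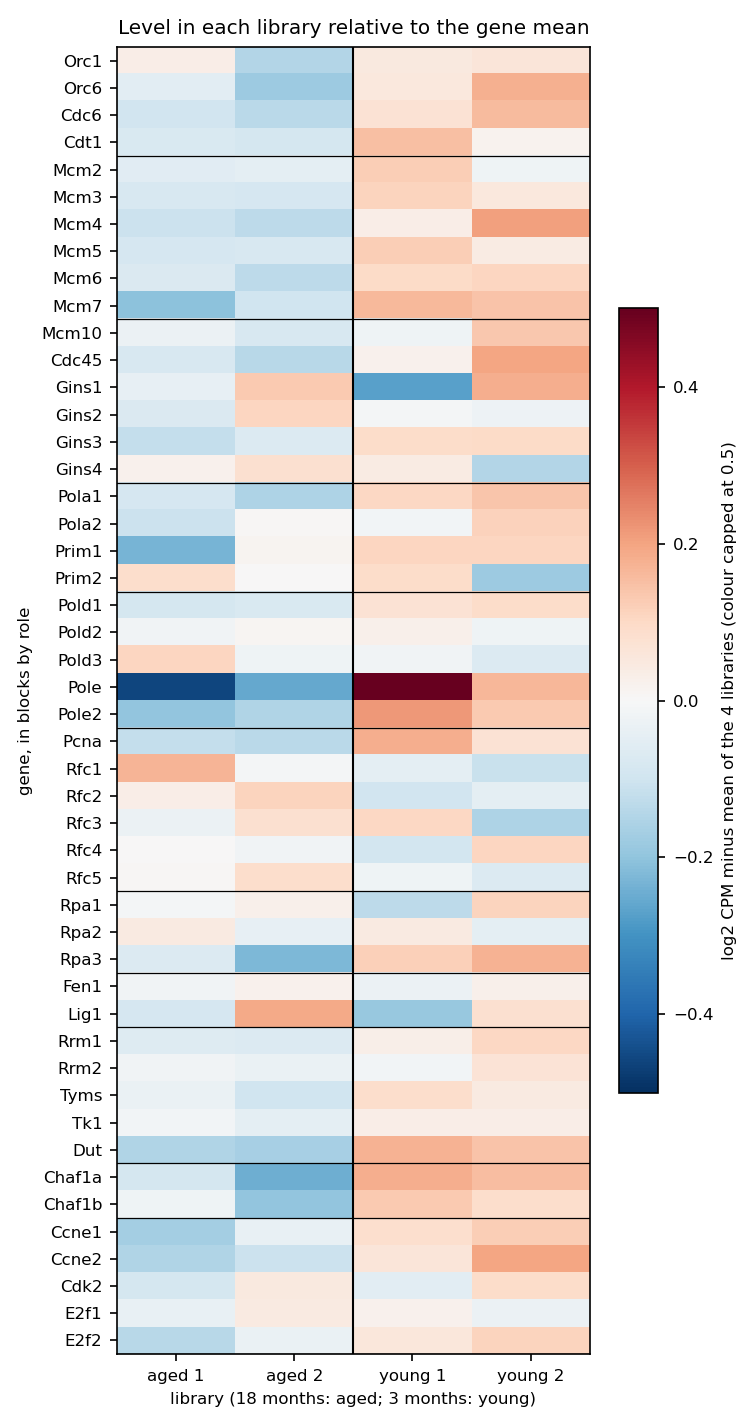
Level of each gene in each library, as log2 CPM minus the gene's mean over the 4 libraries, in blocks by role from origin loading to S-phase entry, with aged libraries left of young ones. All Mcm2 to Mcm7 rows are lower in both aged libraries, while the Rfc rows are not, and Pole has the strongest colours.

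The 4 genes of origin loading in the set were lower in both aged libraries, without passing the test. Orc6, a subunit of the origin recognition complex, had 20.8 and 19.0 CPM in the aged libraries, against 22.4 and 24.4 CPM in the young ones (-0.23 ± 0.11, standard error, edgeR adjusted p = 0.279). The loader Cdc6 had 28.0 and 27.2 CPM in aged and 31.5 and 33.4 CPM in young libraries (-0.23 ± 0.097, edgeR adjusted p = 0.211). Cdt1, the partner of Cdc6 in loading, had 49.9 and 49.4 CPM in aged libraries, against 58.4 and 53.2 CPM in young ones. Aged libraries lay below young ones in these genes and in Orc1, which was the lowest gene of the set, with 117 counts in the library where it was least covered. No adjusted p of these 4 genes was under 0.2. Of 8 tested genes listed under this role outside the set, both aged libraries lay below both young ones in 3. They lay above in 1, and 4 genes overlapped between the ages. Over all tested genes, the shares below and above were 25.7% and 25.9%, and so few genes cannot be told from these shares.

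The helicase subunits were all lower in both aged libraries. Mcm7 fell to 154 and 165 CPM in aged monocytes, against 198 and 195 CPM in young ones. The means were 159 ± 8.15 CPM in aged and 197 ± 1.67 CPM in young libraries (SD, n = 2 each), a log2 change of -0.30 ± 0.063, so that the level fell by 19.0% (edgeR adjusted p = 0.0207). Mcm7 lies on chromosome 5, 138164583 to 138172422 (GRCm38, minus strand), and shares 321 exonic bases with Ap4m1 and 64 with Cops6, which lie on the opposite strand. Ap4m1 had 114 and 96 counts in aged and 194 and 126 in young libraries, while Mcm7 had 3851 and 3588 in aged and 6831 and 3894 in young libraries. The fall did not pass without young replicate 1 (-0.29, edgeR adjusted p = 0.160) or without young replicate 2 (-0.31, edgeR adjusted p = 0.0645).

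The other 5 helicase subunits did not pass the test. Mcm6, the most abundant of them in CPM, had 261 and 251 CPM in aged and 293 and 296 CPM in young libraries (-0.20 ± 0.056, edgeR adjusted p = 0.0639). Mcm4 had 115 and 113 CPM in aged libraries, against 127 and 143 CPM in young ones (-0.24 ± 0.074, edgeR adjusted p = 0.0956). The groups did not overlap in either gene. Mcm5 had 232 and 233 CPM in aged and 268 and 254 CPM in young libraries (-0.17 ± 0.058, edgeR adjusted p = 0.134). Mcm3 had 171 and 171 CPM in aged and 195 and 188 CPM in young libraries. Mcm2 was the closest between the ages, with 119 and 119 CPM in aged and 135 and 122 CPM in young libraries (-0.11 ± 0.071, edgeR adjusted p = 0.435). Summed over the 6 subunits, the level was 1052 and 1052 CPM in aged libraries, against 1215 and 1197 CPM in young ones. Relative to the mean log2 CPM of Mcm2 to Mcm6 in the same library, Mcm7 stood at -0.15 and -0.027 in aged libraries and at 0.042 and 0.044 in young ones. Mcm7 had the largest fall of the 6 subunits, so its lower ratios in aged libraries restate that fall and are not a separate result.

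The factors that activate the helicase gave a mixed picture. Cdc45 had 45.9 and 44.0 CPM in aged libraries, against 49.2 and 55.5 CPM in young ones (-0.22 ± 0.091, edgeR adjusted p = 0.209). Of the GINS subunits, Gins3 had 11.6 and 12.1 CPM in aged and 13.5 and 13.5 CPM in young libraries. Gins1, Gins2 and Gins4 overlapped between the ages, with log2 changes of 0.088, 0.036 and 0.096. Mcm10, which binds the activated helicase, was at -0.11 ± 0.10 (edgeR adjusted p = 0.576). Gins2 shares 67.3% of its annotated exonic length with Gse1 on the opposite strand, so its value is uncertain where counting ignored strand.

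Among the polymerases, the catalytic subunit of DNA polymerase epsilon stood out. Pole fell to 20.1 and 23.2 CPM in aged monocytes, against 40.7 and 31.1 CPM in young ones. The means were 21.7 ± 2.16 CPM in aged and 35.9 ± 6.80 CPM in young libraries (SD, n = 2 each), a log2 change of -0.74 ± 0.14, so that the level fell by 40.0% (edgeR adjusted p = 0.0128). The aged libraries held 505 and 504 counts and the young ones 1405 and 619. Pole lies on chromosome 5, 110286306 to 110337474 (GRCm38, plus strand). The antisense gene model Gm15792 shares 78 of its 11160 exonic bases and had 0 counts in every library. The size of the fall leaned on young replicate 1, the deepest library, without which it was -0.52 (edgeR adjusted p = 0.134). Without young replicate 2 it was -0.91 and passed.

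Its partners were lower by less or not at all. Pole2, the second subunit of polymerase epsilon, had 10.7 and 11.1 CPM in aged and 14.3 and 13.5 CPM in young libraries (-0.35 ± 0.13, edgeR adjusted p = 0.164). The small histone-fold subunits Pole3 (0.066 ± 0.11, edgeR adjusted p = 0.778) and Pole4 (-0.0091 ± 0.086, edgeR adjusted p = 0.965), which are not in the set, had similar means at both ages. The log2 ratio of Pole to Pole2 within a library was 0.91 and 1.06 in aged libraries, against 1.51 and 1.20 in young ones, and the log2 ratio of Pole to the mean of Pole3 and Pole4 was -0.95 and -0.61 in aged libraries, against 0.14 and -0.22 in young ones. The ratios were lower in both aged libraries, and with 2 libraries a group no exact test of them can give a small p. Pole had the largest fall of these subunits, so the ratios restate that fall and are not a separate result.

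In polymerase delta, the catalytic subunit Pold1 had 95.9 and 96.6 CPM in aged and 107 and 108 CPM in young libraries (-0.16 ± 0.067, edgeR adjusted p = 0.195). Pold2 and Pold3, its accessory subunits, overlapped between the ages. In polymerase alpha, which starts strands with its primase, the catalytic subunit Pola1 had 35.1 and 33.4 CPM in aged and 39.9 and 40.9 CPM in young libraries (-0.24 ± 0.090, edgeR adjusted p = 0.162). The primase gene Prim1 was at -0.21 ± 0.12 (edgeR adjusted p = 0.340), and Pola2 and Prim2 overlapped between the ages.

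**Figure D3:**
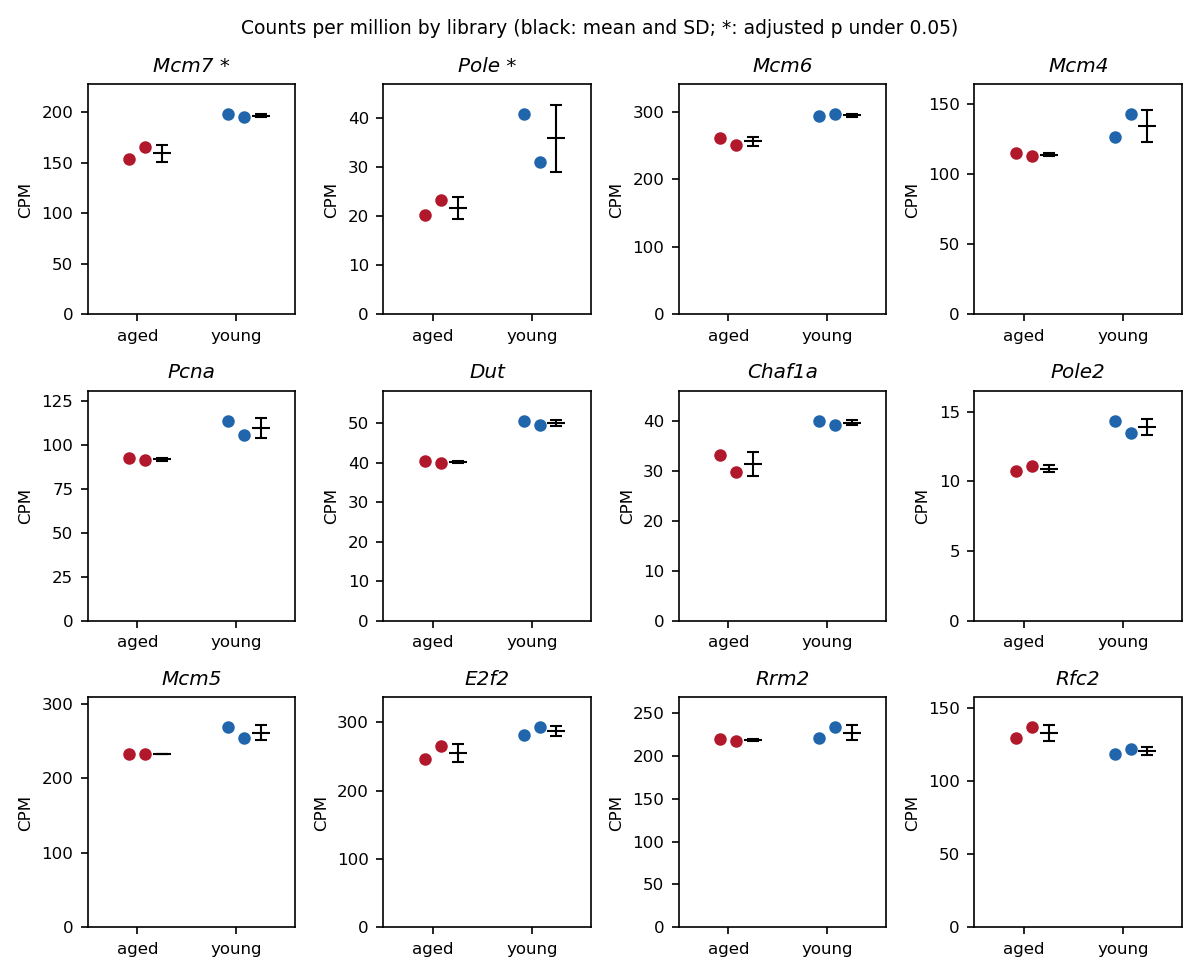
CPM in each library of 12 genes, with aged libraries (red) left of young libraries (blue) and black bars for mean and SD (n = 2 each). The asterisks on Mcm7 and Pole mark an adjusted p under 0.05; Rfc2 is the only one of these 12 genes with aged values above young values.

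No gene of the sliding clamp and its loader passed the test. Pcna, the clamp, had 92.6 and 91.4 CPM in aged monocytes, against 114 and 106 CPM in young ones (-0.25 ± 0.071, edgeR adjusted p = 0.064), without overlap. The loader subunits Rfc1, Rfc2 and Rfc5 had higher values in both aged libraries. Rfc2 had 129 and 136 CPM in aged and 118 and 122 CPM in young libraries (0.14 ± 0.066, edgeR adjusted p = 0.246), and Rfc1 had 61.2 and 54.0 CPM in aged and 52.5 and 50.4 CPM in young libraries (0.16 ± 0.089, edgeR adjusted p = 0.332). Rfc2 shares 15.1% of its annotated exonic length with Lat2 on the opposite strand, and Rfc5 10.7% with Wsb2. Lat2 had 43.6 and 46.2 CPM in aged and 40.9 and 41.4 CPM in young libraries. Wsb2 was lower in both aged libraries. The part of Lat2 reads in the Rfc2 values was not tested. Rfc3 and Rfc4 overlapped between the ages. The mean log2 CPM of the 6 helicase subunits minus that of the 5 loader subunits was 1.91 and 1.90 in aged libraries, against 2.18 and 2.18 in young ones. It was lower in both aged libraries, which restates the opposite directions of the helicase and loader means and is not a separate result.

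The other fork genes of the set did not pass the test, and all but Rpa3 overlapped between the ages. In the trimer that coats single-stranded DNA, Rpa1 (0.015 ± 0.088) and Rpa2 (0.0030 ± 0.089) overlapped between the ages, while Rpa3 had 21.3 and 19.1 CPM in aged and 24.2 and 25.1 CPM in young libraries (-0.29 ± 0.11, edgeR adjusted p = 0.170). Fen1, the flap nuclease of Okazaki fragments, had 120 and 123 CPM in aged and 118 and 123 CPM in young libraries (0.0038 ± 0.066, edgeR adjusted p = 0.982). The ligase gene Lig1 varied more within an age than between ages, with 67.3 and 81.5 CPM in aged and 62.6 and 75.5 CPM in young libraries.

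The 5 genes of nucleotide supply in the set were lower in both aged libraries, without passing the test. Dut, which removes dUTP, had 40.4 and 39.9 CPM in aged and 50.5 and 49.6 CPM in young libraries (-0.32 ± 0.084, edgeR adjusted p = 0.0545). It passed with limma-voom (adjusted p = 0.0482). Rrm1 and Rrm2 encode the subunits of ribonucleotide reductase, which makes deoxynucleotides. Rrm1 had 233 and 232 CPM in aged and 249 and 262 CPM in young libraries (-0.14 ± 0.058, edgeR adjusted p = 0.215). Rrm2 had 219 and 217 CPM in aged and 220 and 233 CPM in young libraries (-0.054 ± 0.059, edgeR adjusted p = 0.652). Tyms, the thymidylate synthase gene, and Tk1, the thymidine kinase gene, were at -0.13 ± 0.081 and -0.065 ± 0.081. Of 9 tested genes listed under this role outside the set, both aged libraries lay below both young ones in 4 and above them in 0. The other 5 overlapped between the ages. Over all tested genes, the shares below and above were 25.7% and 25.9%, and 9 genes are too few to tell from these shares.

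Chaf1a and Chaf1b encode subunits of the chaperone that places histones on new DNA. Chaf1a had 33.1 and 29.7 CPM in aged and 39.9 and 39.2 CPM in young libraries (-0.33 ± 0.097, edgeR adjusted p = 0.0739). Of the annotated exonic length of Chaf1a, 52.5% is shared with Ubxn6 on the opposite strand. Chaf1b had 22.3 and 19.8 CPM in aged and 24.9 and 24.1 CPM in young libraries (-0.22 ± 0.11, edgeR adjusted p = 0.294). Of the regulators of S-phase entry, the cyclin gene Ccne2 had 31.2 and 32.2 CPM in aged and 36.1 and 39.8 CPM in young libraries (-0.26 ± 0.096, edgeR adjusted p = 0.158). Ccne1 was at -0.20 ± 0.12 (edgeR adjusted p = 0.343), and their partner kinase gene Cdk2 overlapped between the ages (-0.038 ± 0.082). The transcription factor gene E2f2 had 246 and 265 CPM in aged and 281 and 292 CPM in young libraries (-0.17 ± 0.061, edgeR adjusted p = 0.143). E2f1 had 41.6 and 44.0 CPM in aged and 43.2 and 41.8 CPM in young libraries (0.0079 ± 0.088), with the groups interleaved.

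Levels between genes were compared per length, as TPM, computed from counts over the annotated exonic length in GENCODE M21. Averaged over the 4 libraries, Rrm2 was highest at 231 TPM, followed by Mcm5 at 178 TPM, Mcm6 at 170 TPM and E2f2 at 160 TPM. Orc1 was lowest at 4.94 TPM, and Pole was next at 7.41 TPM. Among helicase subunits the level ranged from 51.1 TPM for Mcm2 to 178 TPM for Mcm5. E2f1 stood at 38.9 TPM. These lengths join the exons of all annotated transcripts of a gene, and which transcripts were expressed was not measured.

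**Figure D4:**
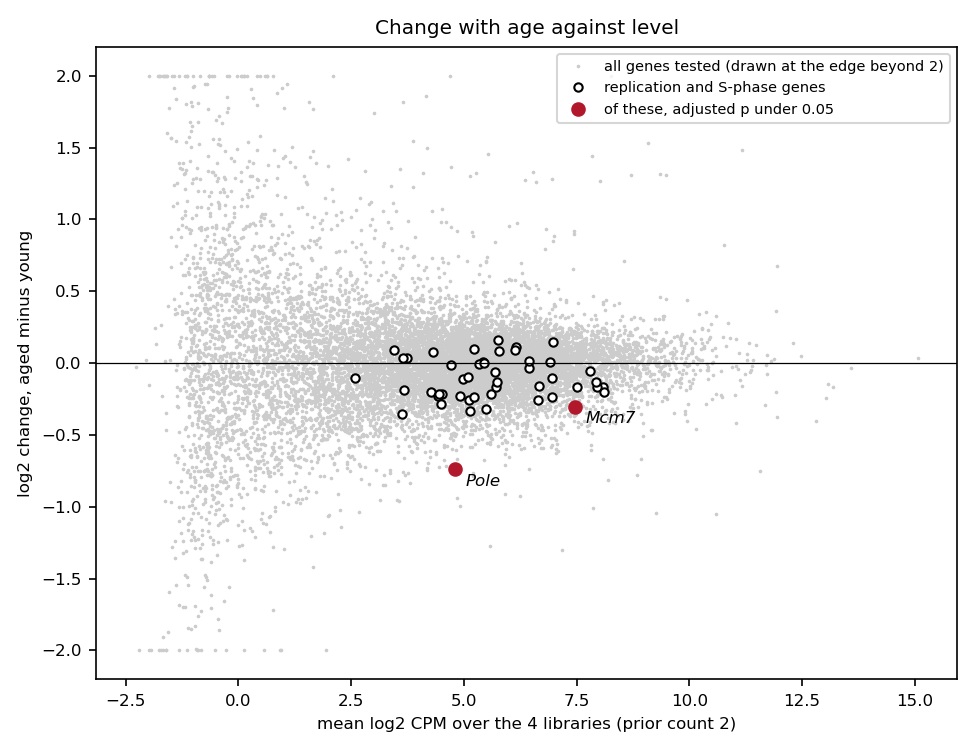
Log2 change, aged minus young, against mean log2 CPM for all 12035 tested genes (grey) and for the 48 replication and S-phase genes (circles, filled red where the adjusted p was under 0.05). Most circles lie just below 0 and within the grey cloud, with Pole (-0.74) farthest from 0.

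A further list of 75 genes of replication and its control outside the set, the E2F and RB axis included, gave a similar picture. It was chosen by function with earlier results of these data known and was read in the same 4 libraries. The list is therefore no independent check of the set. Of its 74 tested genes, edgeR called 3 lower and 0 higher in aged monocytes, beside 2.89% and 2.87% of all tested genes. DESeq2 called 2 lower and 0 higher, and limma-voom 4 lower and 1 higher. At an unadjusted p under 0.05, edgeR gave 19 lower and 1 higher, beside 11.0% and 10.1% of all tested genes. Both aged libraries lay below both young ones in 39 genes and above them in 6, beside 25.7% and 25.9% of all tested genes. The median log2 change was -0.14. Dna2, a nuclease and helicase that trims Okazaki fragments, fell to 128 and 135 CPM in aged monocytes, against 161 and 156 CPM in young ones (-0.27 ± 0.064, edgeR adjusted p = 0.037). Hells, a chromatin remodelling helicase, fell to 26.7 and 28.3 CPM in aged monocytes, against 34.6 and 39.3 CPM in young ones (-0.42 ± 0.10, edgeR adjusted p = 0.0415). E2f8, an E2F family repressor, fell to 58.6 and 61.0 CPM in aged monocytes, against 71.3 and 77.9 CPM in young ones (-0.32 ± 0.081, edgeR adjusted p = 0.0488). Dna2 passed without aged replicate 2 but not without any other library (edgeR adjusted p = 0.0743 to 0.277), and Hells and E2f8 did not pass with any library left out (edgeR adjusted p = 0.0527 to 0.213 and 0.0678 to 0.258). The S-phase cyclin gene Ccna2 had 186 and 179 CPM in aged and 221 and 208 CPM in young libraries (-0.23 ± 0.061, edgeR adjusted p = 0.0545). Top1, a topoisomerase gene, had 101 and 102 CPM in aged and 79.9 and 87.3 CPM in young libraries (0.28 ± 0.074, edgeR adjusted p = 0.0524).

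Lists for other phases and cell types were set beside these values. Of 20 genes of G2 and mitosis, edgeR, DESeq2 and limma-voom called 0. At an unadjusted p under 0.05, edgeR gave 5, all lower, beside 11.0% of all tested genes lower. Both aged libraries lay below both young ones in 10 of the 20 genes and above them in 0. Over all tested genes these shares were 25.7% and 25.9%. The median log2 change of the list was -0.095, with 15 negative and 5 positive. Its summed level was 1904 and 1829 CPM in aged libraries, against 1978 and 1973 CPM in young ones. The 2 most abundant genes were lower in both aged libraries. Bub1b had 148 and 136 CPM in aged and 161 and 158 CPM in young libraries, and Ccnb1 133 and 131 CPM against 141 and 160 CPM. The highest log2 change on the list was that of the proliferation marker Mki67. This gene had 83.1 and 58.0 CPM in aged and 62.6 and 56.3 CPM in young libraries (0.25, edgeR adjusted p = 0.348). It passed as higher without aged replicate 2 (0.48, edgeR adjusted p = 0.0144) and was at -0.038 without aged replicate 1. A list of myeloid progenitor and primary granule genes moved with the replication genes. Of its 9 tested genes, 6 were called lower (Mpo, Elane, Prtn3, Ctsg, Ms4a3 and Kit) and 1, Flt3, higher. Over all tested genes, 2.89% were called lower and 2.87% higher. Its summed level was 2951 and 3002 CPM in aged libraries, against 3586 and 3651 CPM in young ones, a ratio of 0.823. Without young replicate 1 the counts were 2 lower and 0 higher. Kit, the receptor of early progenitors, fell to 11.8 and 16.3 CPM in aged monocytes, against 23.0 and 23.4 CPM in young ones (-0.73, edgeR adjusted p = 0.0202; 0.0964 without young replicate 1). The non-classical monocyte list moved the opposite way, with 7 of 10 genes called higher, beside 2.87% of all tested genes. Its summed level was 1887 and 1726 CPM in aged libraries, against 1365 and 1289 CPM in young ones. The part of these shifts in the replication values was not tested.

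**Figure D5:**
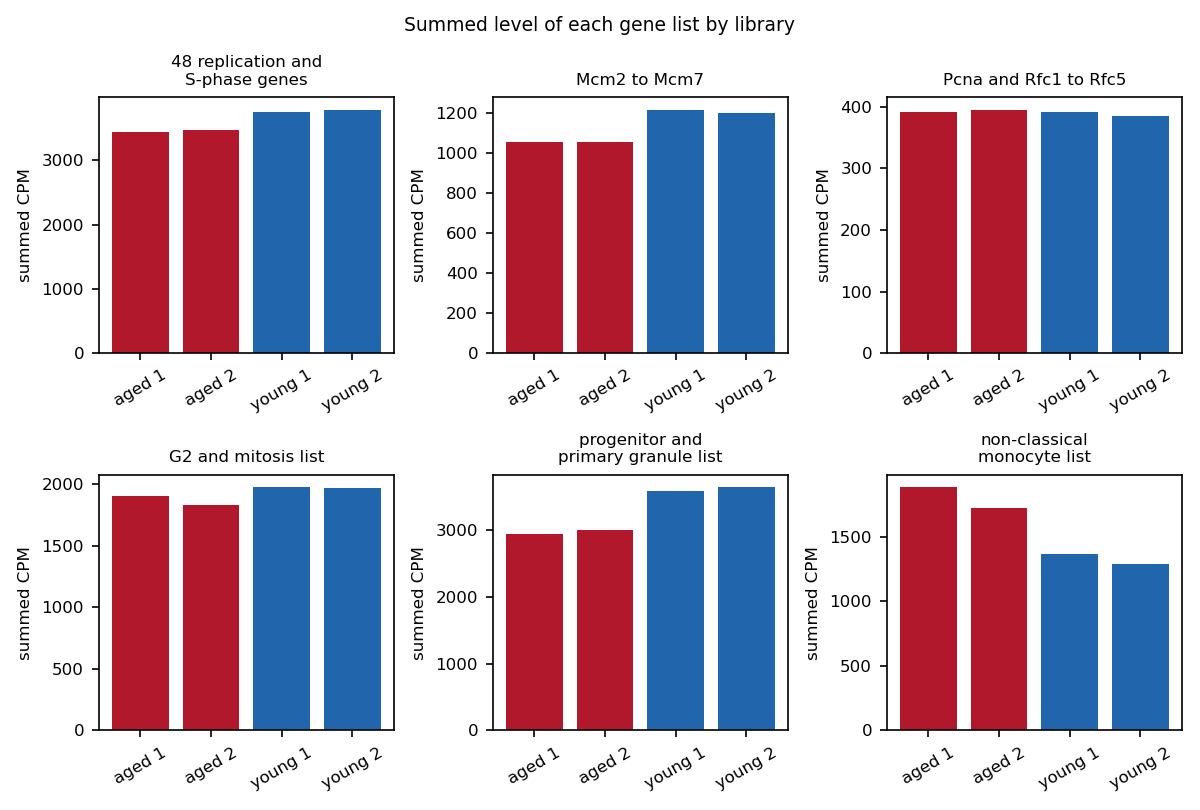
Summed CPM of the 48 replication and S-phase genes, of 2 of their roles and of 3 marker lists in each library, with aged libraries (red) left of young ones (blue). The helicase and progenitor sums are lower in both aged libraries, the clamp and loader sum is between 384 and 395 CPM throughout, and the non-classical monocyte sum is higher in both aged libraries.

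Monocyte markers were present throughout, with Lyz2 between 32747 and 35199 CPM, Csf1r at 1768 and 1711 CPM in aged and 1392 and 1384 CPM in young libraries, and Ccr2 at 2367 and 2079 CPM in aged and 2007 and 1943 CPM in young ones. Csf1r was called higher in aged monocytes (log2 change 0.33). Of 12 monocyte markers, 2 were called higher, Csf1r included, and 4 lower, beside 2.87% and 2.89% of all tested genes. The list had 7 positive and 5 negative log2 changes, from -0.75 to 0.97. Those called lower were Chil3, Ly6c2, Fn1 and Mpeg1 (log2 changes -0.75, -0.42, -0.38 and -0.25). Chil3 had 2303 and 2350 CPM in aged libraries, against 3889 and 3950 CPM in young ones, and Ly6c2 had 1794 and 1813 CPM in aged libraries, against 2489 and 2337 CPM in young ones. Genes on the lists for other marrow cell types were present too. Among them were S100a9 (7929 to 9193 CPM), Mpo (1527 to 1854 CPM) and Hbb-bs (158 to 178 CPM). Ighm had 841 and 838 CPM in aged and 608 and 622 CPM in young libraries. Whether these transcripts came from other cells or from the monocytes was not tested. Of 9 tested B-lineage markers, 5 were called higher in aged monocytes, and of 12 erythroid markers 2. Of 12 neutrophil markers, 2 were called higher and 2 lower, and of 12 dendritic cell markers 3 higher. These counts stand beside 2.87% of all tested genes called higher and 2.89% called lower. Of 6 tested markers of haematopoietic stem cells 1 was higher and 1, Kit, lower, with 2 higher without aged replicate 2 and 0 higher without young replicate 2. Among 11 tested markers of T and NK cells, 0 were called by edgeR, DESeq2 and limma-voom. At an unadjusted p under 0.05, 1 was higher and 1 lower in each tool. With edgeR, 10.1% of all tested genes were higher and 11.0% lower at that threshold. Without young replicate 1 the count was 0 for dendritic cells and stem cells, 1 higher for erythroid cells and 2 lower for monocytes. Without aged replicate 1 it was 4 higher for neutrophils, 1 lower for T and NK cells and 1 lower beside 2 higher for erythroid cells, and with any other library left out it was 3 higher for the B lineage. Library totals ranged from 20159129 to 34278754 counts, and mitochondrially encoded genes made up 0.106% and 0.0893% of counts in aged libraries, against 0.174% and 0.188% in young ones.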

How the data were processed

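Messenger RNA of sorted marrow monocytes was selected with oligo-dT beads and made into strand-specific libraries by dUTP marking, per the labels' protocols. The authors deposited 1 table of raw counts per gene symbol for each library, with no normalization. The mm10 build and the tools HTSeq, STAR 2.5.3, DESeq2 and cutadapt stand in the submitters' processing notes, with no role for each. Which annotation and strand setting were used is not given in the sources used here. Reads of genes on opposite strands may therefore be shared where they overlap. Pcna has a near copy, Pcna-ps2, with 9 to 33 counts a library.

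Genes were filtered with filterByExpr by age group. It kept genes with at least 15 counts in total and a CPM worth 10 counts at the median library size in at least 2 libraries. Counts were scaled by TMM, and age was tested two-sided over all 12035 genes left (edgeR 4.0.16, R 4.3.3). The p-values were adjusted by Benjamini-Hochberg, with a threshold of 0.05. A standard error is the log2 change over the square root of F. Library totals were 24918091 and 21837261 counts in aged and 34278754 and 20159129 counts in young libraries. Of the 31017 symbols, 30477 matched 1 gene of GENCODE M21 (GRCm38, as mm10), which gave positions and exonic lengths. Alternatives were 3 other scalings, 2 other filters, DESeq2 1.42.0, limma-voom (limma 3.58.1), a robust fit, a block for the replicate number, and leaving out each library. Genes given in full are those past the threshold in the main test or an alternative, the 4 largest changes and the 4 highest levels per length; other members are given by role. The members, lists and tests were chosen with earlier results of these data known. Within an age the libraries differed by more than counting noise (chi-square per degree of freedom 10.4 in aged and 13.6 in young), so they were not merged as 1 library deposited again. That does not show that they came from separate animals. A result for 1 marker gene is not reported here.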

Additional observations from a re-analysis of the deposited data

How the results depend on the processing

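Over 13 alternatives, 31 of the 48 genes kept a negative and 5 a positive log2 change throughout. Pole and Mcm7 were called in each alternative that used all 4 libraries, with log2 changes from -0.91 to -0.52 and from -0.36 to -0.25 over all alternatives, and were lost as given above. The median over the 48 genes was -0.13 with library size only and -0.12 with upper-quartile factors. Without a filter on low counts, genes called numbered 606 higher and 793 lower, against 346 and 348 in the main test, with 7 of the 48 genes lower (Mcm4, Mcm6, Pcna, Dut and Chaf1a joining Pole and Mcm7) and 1 higher and 11 lower in the further replication list. With the replicate number as a block, 801 genes were higher and 1016 lower, with 9 of the 48 genes lower (Mcm5 and E2f2 besides those 7), 1 higher and 18 lower in the further list. The deviations of same-numbered libraries correlated at 0.094 across genes, and nothing in the labels pairs them, so the numbers are only names. Top1 made the further list's count of 1 higher also with upper-quartile factors, a mean of at least 5 CPM, limma-voom and robust edgeR. With each library left out, genes called ranged from 116 to 452 higher and from 81 to 588 lower, the 48 genes from 0 to 4 lower, and the further list from 0 to 1 higher and from 0 to 6 lower. E2f8 was also lost with library size only (adjusted p = 0.0522), upper-quartile factors (0.0561) and DESeq2 (0.0526). The cause of these shifts was not tested.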
